A study of Mus musculus with 32 samples.

Results

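The genes described here encode the subunits of the AMPA-type glutamate receptor and the auxiliary proteins that travel with it. They were chosen by name: the pore-forming subunit genes Gria1, Gria2, Gria3 and Gria4, the TARP genes Cacng2, Cacng3 and Cacng8, and the cornichon genes Cnih2 and Cnih3, 9 genes in all. Of these, 7 had a feature with that single symbol among 16755 gene-level features, 1 feature each, and the same 7 had 103 of 188590 exon probe sets. Cacng3 and Cacng8 were not analysed here. RNA came from the hippocampus of 16 male mice aged 6 to 8 weeks, 8 Sicd2-ISCL4 subcongenic mice (ISCL4 mice) and 8 FVB-like littermates, with both hippocampi of a mouse combined and 1 exon array per mouse. Sicd2 names a locus on chromosome 15 for susceptibility to cell death after seizures, and a subcongenic line carries part of such a locus from a donor strain. The labels give neither the limits of the donor segment nor any treatment, so mice of both groups are taken as untreated. The comparison asks whether transcripts of the receptor for fast excitatory transmission differ with the donor segment.

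AMPA receptors carry most fast excitatory current in the hippocampus and are built from GluA subunits, which the Gria genes encode. GluA2, after editing of its mRNA, makes the channel nearly impermeable to calcium, and receptors that lack it have long been studied in connection with seizure-induced neuron loss. TARPs, of which stargazin (Cacng2) is the best known, bring receptors to the synapse and slow their closing. Cornichons escort receptors out of the endoplasmic reticulum in mammals and also slow their kinetics.

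Values are log2 array signals, so a difference of 1 is a doubling, and the level of one gene cannot be set against that of another because their probes differ. Array medians lay between 7.29 and 7.34 at gene level. The array files follow 2 naming schemes, called array set A (replicates 1 to 4 of both groups) and array set B (replicates 5 to 8), whose meaning the labels do not state. Array set was a term in the fits reported here unless another setting is named. Markers of hippocampal principal neurons were measured for 13 of 14 listed genes, among them the vesicular glutamate transporter Slc17a7 at 11.84 in ISCL4 mice and 11.81 in littermates, and their mean signal per mouse ranged from 9.29 to 9.53 in ISCL4 mice and from 9.32 to 9.48 in littermates. Markers of oligodendrocytes had the largest median difference of the 12 marker lists, with lower means in ISCL4 mice for 9 of 10 measured genes, a median of -0.30, and summed levels of 91.8 to 97.9 in ISCL4 mice against 95.3 to 100.1 in littermates. None of these 10 passed the test, and 8 of them had an unadjusted p under 0.05, against 14.4% of all features. Markers of meninges and fibroblasts were lower for 7 of 7 genes, 3 of them with an unadjusted p under 0.05, and those of choroid plexus for 5 of 5, again with none that passed. Markers of GABAergic interneurons were higher for 8 of 10 genes, with a median of 0.046. Of these interneuron markers 3 had an unadjusted p under 0.05, Pvalb among them, and none passed. Over the 12 lists, the 1 marker that passed was Fezf2, a transcription factor gene of deep-layer neocortical neurons, with 10.13 in ISCL4 mice and 9.92 in littermates, a difference of 0.22 (SE 0.042, limma's adjusted p = 0.0345). With the replicate number as a block, Fezf2 did not pass (limma's adjusted p = 0.0751). The part of these cell types in the values below was not tested.

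None of the 7 genes passed at gene level, where limma's adjusted p under 0.05 over all features was reached by 0.292% of the features. The largest differences were in Gria2, Gria3 and Cacng2, and the 95% interval of every member's difference lay within 0.880-fold and 1.10-fold. An unadjusted p under 0.05 was reached by 2 of the 7 genes, 1 lower (6.89% of all features) and 1 higher (7.51% of all features). These were Gria2 and Cacng2, and 14.4% of all features reached it in either direction. Mean signals were lower in ISCL4 mice for 6 of the 7 as deposited and for 4 of the 7 after quantile normalization, which turned Gria1 and Cnih3. The members' median difference as deposited was -0.054, against 0.0044 over all features, of which 47.9% were below 0. In bulk tissue, fewer cells of a type and less RNA per cell cannot be told apart. Individual mice overlapped between the groups for all 7 genes, while 0.119% of all features had groups that did not overlap.

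**Figure D1:**
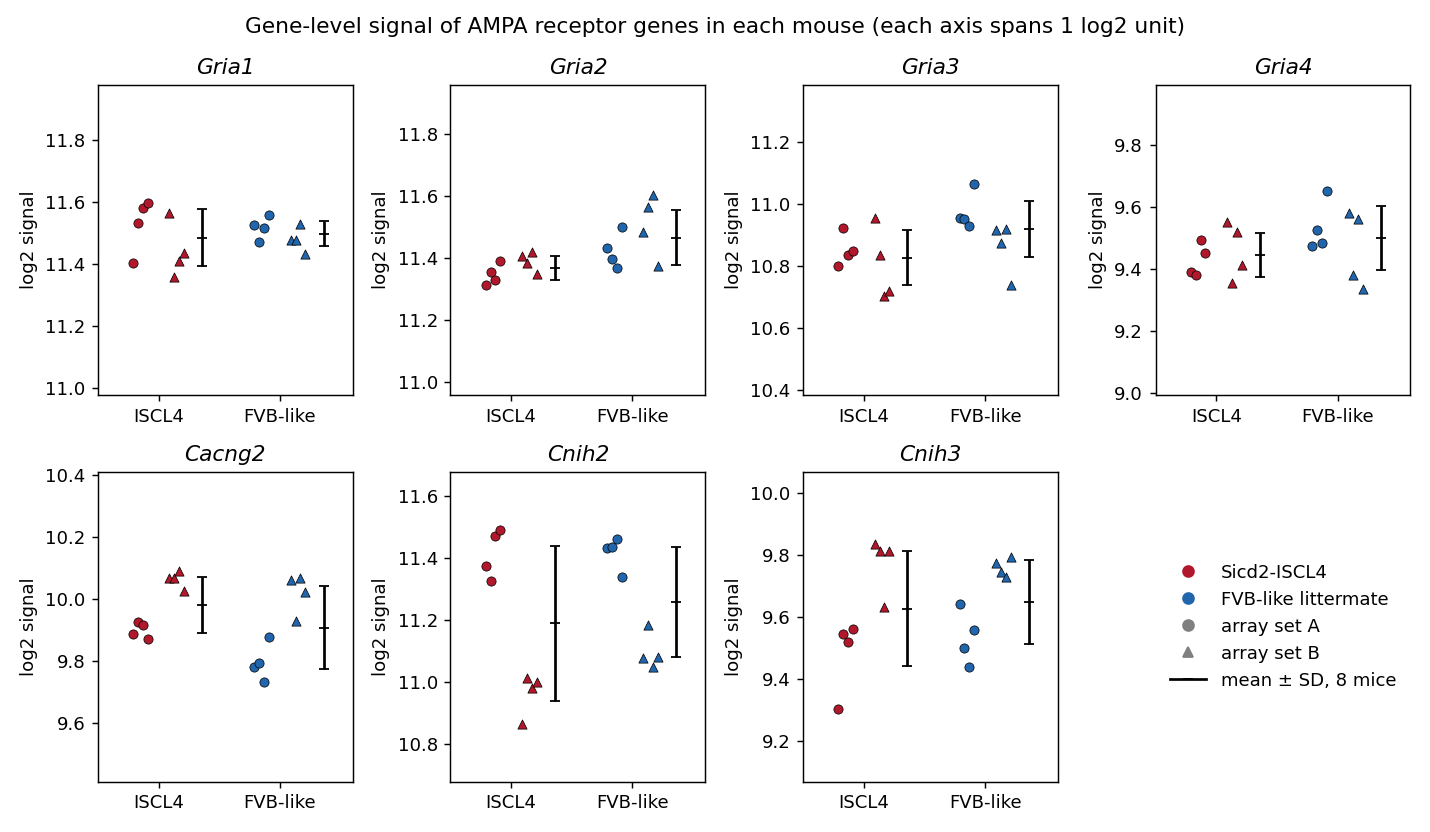
Gene-level log2 signal of the 7 measured genes in each mouse, ISCL4 mice on the left and FVB-like littermates on the right of each panel. Circles are array set A, triangles array set B, bars are mean ± SD over 8 mice, and every axis spans 1 log2 unit. Cacng2, Cnih2 and Cnih3 separate by array set more than by group, and Gria2 has its highest values among littermates of set B.

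Gria2 (transcript cluster 6906261, chromosome 3), the gene of the subunit that limits calcium entry, had signals of 11.31 to 11.42 with a median of 11.37 in ISCL4 mice. In littermates the range was 11.37 to 11.60 with a median of 11.46. All 8 ISCL4 mice lay below the mean of the littermates of their own array set, although the ranges of the groups overlapped from 11.37 to 11.42. The means were 11.37 ± 0.038 in ISCL4 mice and 11.46 ± 0.088 in littermates (SD, n = 8 each), a difference of -0.098 (SE 0.036, 95% interval -0.17 to -0.022) with limma's adjusted p = 0.239. In array set A the ISCL4 mice had 11.31, 11.35, 11.33 and 11.39, against 11.43, 11.39, 11.37 and 11.50 in littermates. In array set B they had 11.41, 11.38, 11.42 and 11.35, against 11.48, 11.56, 11.60 and 11.37. The spread was wider among littermates in both sets, and the difference was -0.077 in set A and -0.12 in set B.

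Gria3 (7010835, chromosome X), an X-linked subunit that often pairs with GluA2, had a lowest, median and highest signal of 10.70, 10.83 and 10.96 in ISCL4 mice, against 10.74, 10.93 and 11.07 in littermates. Of the ISCL4 mice 7 lay below the littermate mean of their set. The difference was -0.092 (SE 0.043, 95% interval -0.18 to 7.0e-05, limma's adjusted p = 0.347), close to that of Gria2. It was -0.12 in set A, where only ISCL4 replicate 2, at 10.92, came near the lowest littermate at 10.93, and -0.060 in set B.

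Gria1 (6781201, chromosome 11) encodes the subunit most tied to activity-dependent insertion at hippocampal synapses. Its signals ran from 11.36 through a median of 11.48 to 11.60 in ISCL4 mice, and from 11.43 through 11.50 to 11.56 in littermates. The ISCL4 mice spread over a wider range that took in that of the littermates, and 4 of 8 lay on each side of the littermate mean of their set. The difference of -0.013 (SE 0.038, adjusted p = 0.913 by limma) had a 95% interval of -0.093 to 0.067, that is 0.938-fold to 1.05-fold. Its sign was not stable: quantile normalization gave 0.022 and array set A alone 0.011.

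Gria4 (6993204, chromosome 9), a subunit prominent early in development and in interneurons, had signals of 9.36 to 9.55 with a median of 9.43 in ISCL4 mice and of 9.34 to 9.65 with a median of 9.50 in littermates. The groups overlapped over most of that range. The difference was -0.054 (SE 0.048, limma's adjusted p = 0.645), with -0.10 in set A and -0.0044 in set B.

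Cacng2 (6836991) was the 1 member with a higher mean signal in ISCL4 mice and the 1 measured member on chromosome 15. Its signals were 9.87 to 10.09 with a median of 9.98 in ISCL4 mice and 9.73 to 10.07 with a median of 9.90 in littermates. All 8 ISCL4 mice lay above the littermate mean of their set. In array set A the 4 ISCL4 mice had 9.89, 9.93, 9.92 and 9.87, against 9.78, 9.79, 9.73 and 9.88 in littermates, so that 1 littermate reached the lowest ISCL4 mouse. In array set B the values were 10.07, 10.07, 10.09 and 10.02 against 10.06, 9.93, 10.07 and 10.02. The means were 9.98 ± 0.090 in ISCL4 mice and 9.91 ± 0.13 in littermates (SD, n = 8 each). The difference was 0.073 (SE 0.032, 95% interval 0.0056 to 0.14), which is 1.05-fold, and limma's adjusted p was 0.310. It was 0.10 in set A and 0.042 in set B. Cacng2 also varied little between mice: its residual SD of 0.048 was smaller than that of all but 2.53% of features, whose median was 0.125.

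Since the locus lies on chromosome 15, the features beside Cacng2 were read too, a step added after the values were seen. Among the 5 measured genes on each side in RefSeq order, Myh9, a non-muscle myosin heavy chain gene, differed by 0.15 (adjusted p = 0.138), Pvalb, the interneuron calcium buffer parvalbumin, by 0.19 (adjusted p = 0.257) and Csf2rb, a cytokine receptor gene, by 0.38 (adjusted p = 0.215), all in limma's fit over all features. None of the 10 passed, against 0.292% of all features, and the differences of Txn2, Ift27 and Tst were below 0. Foxred2 differed by 0.10 (limma's adjusted p = 0.310). Csf2rb had a low signal, with means of 6.18 in ISCL4 mice and 5.80 in littermates. The 25th percentile of mean signal over all gene-level features was 5.77, just below the littermate mean of Csf2rb. The nearest gene on chromosome 15 that passed was Pdgfb, a growth factor gene, with 43 measured genes between it and Cacng2 and a difference of 0.23 (adjusted p = 0.0345).

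Cnih2 (6871076, chromosome 19), the cornichon that accompanies most hippocampal AMPA receptors, had signals of 10.87 to 11.49 in ISCL4 mice with a median of 11.17, against 11.05 to 11.46 in littermates with a median of 11.26. These wide ranges came from the array sets, which did not overlap: set B averaged 11.03 and set A 11.42 over both groups. The group difference was -0.068 (SE 0.040, limma's adjusted p = 0.460). Within set B, ISCL4 mice had 10.87, 11.01, 10.98 and 10.999, all below the littermates at 11.08, 11.18, 11.05 and 11.08, a difference of -0.13. Within set A the difference was -0.0015, with mice of both groups intermixed.

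Cnih3 (6755757, chromosome 1), the close paralogue of Cnih2, had signals of 9.30 to 9.84 with a median of 9.60 in ISCL4 mice and 9.44 to 9.79 with a median of 9.69 in littermates. ISCL4 replicate 1, of set A, had the lowest value at 9.30. The difference was -0.020 (SE 0.046, limma's adjusted p = 0.885) with a 95% interval of 0.921-fold to 1.06-fold. It was 0.0098 without ISCL4 replicate 1, 0.0049 after quantile normalization and 0.012 within set B, so that no direction can be given.

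**Figure D2:**
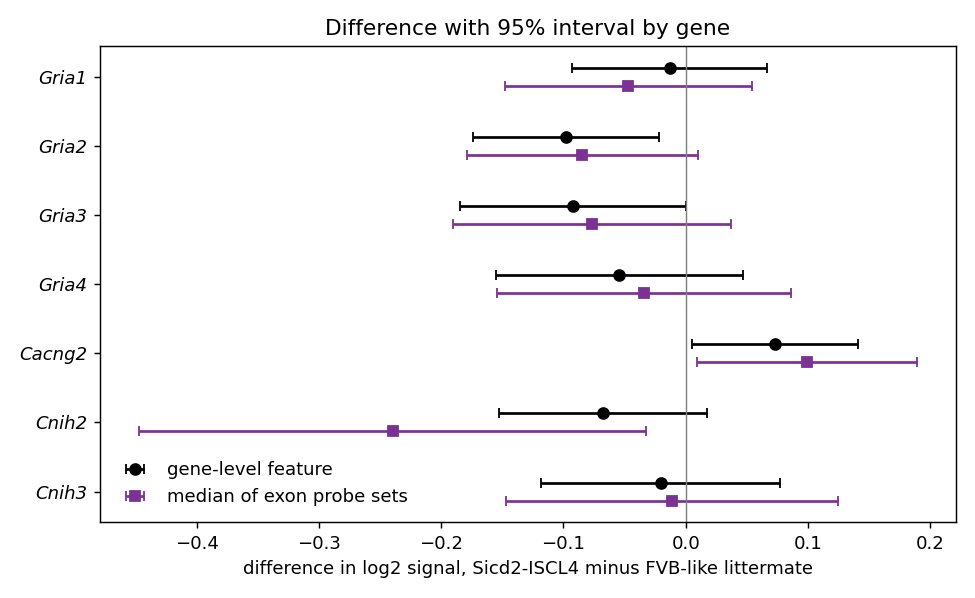
Difference in log2 signal, ISCL4 mice minus FVB-like littermates, for each of the 7 genes with its 95% interval. Circles are the deposited gene-level features and squares the median of each gene's exon probe sets, both fitted over all genes with array set as a term. Only Cnih2 differs clearly between the summaries, at -0.068 and -0.24.

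The group difference was also tested for dependence on array set. Its interaction with the set passed for 0 of the 7 genes and for 0.00597% of all features (limma's adjusted p under 0.05). None of the 7 reached an unadjusted p under 0.05, against 6.45% of all features, and Cnih2 had the smallest at 0.0971. The array sets themselves differed more than the groups for several members. Cacng2 was higher in set B by 0.19, Cnih3 by 0.26, and Cnih2 differed by -0.39 (limma's adjusted p = 0.00015, 0.00029 and 1.7e-06), while the Gria genes did not pass. Of all features, 46.4% passed this test of set B against set A.

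Single exon probe sets were then compared, since a change in part of a transcript can be hidden in a gene's summary. None of the 103 probe sets passed, against 0.0249% of all probe sets, and the smallest adjusted p by limma was 0.371. An unadjusted p under 0.05 was reached by 11 of them, or 10.7%, against 10.2% of all probe sets, a share at the background. Of the 11, 10 were lower in ISCL4 mice, a share of 9.71% of the 103 against 5.07% of all probe sets, and 1 was higher, or 0.971% against 5.16%. The difference was below 0, whatever its p, for 71 of the 103, or 68.9%, against 48.9% of all. Probe sets of one gene read the same RNA and are not replicates of each other. No member probe set had a mean signal below the 25th percentile of all probe sets, and for none did the groups separate without overlap, against 0.0546% of all.

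**Figure D3:**
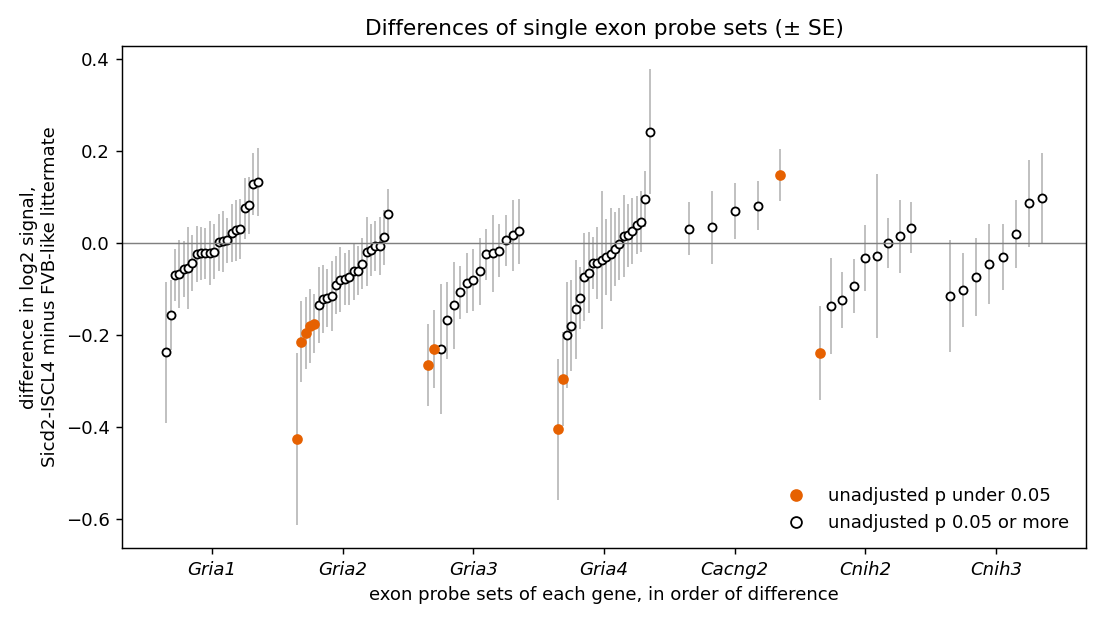
Difference in log2 signal, ISCL4 mice minus FVB-like littermates, of each of the 103 exon probe sets, ordered by size within its gene, with the SE of limma's fit. Filled points had an unadjusted p under 0.05 and none passed after adjustment. In Gria2, 20 of 22 points lie below 0, and in Cacng2 all 5 lie above it.

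Gria2 had the most probe sets on one side, with 20 of 22 lower in ISCL4 mice, from -0.43 to 0.063 around a median of -0.079. Its probe set with the smallest p, 5560208, had signals of 10.76 to 10.93 with a median of 10.84 in ISCL4 mice, against 10.72 to 11.31 with a median of 10.99 in littermates. All 8 ISCL4 mice were below the littermate mean of their set, and FVB-like replicate 3 had the lowest value of all 16. The difference was -0.18 (SE 0.064, limma's adjusted p = 0.394). Probe set 5478535 had the largest difference, -0.43 (SE 0.19, limma's adjusted p = 0.461), in which FVB-like replicates 5 and 7, at 11.32 and 11.07, stood above all other mice, whose values were 9.59 to 10.36. The difference there was -0.16 in set A and -0.69 in set B. Probe sets 5606238, 5137194 and 5535923 differed by -0.20, -0.21 and -0.18 with unadjusted p under 0.05. The median over all 22 probe sets, fitted like a gene, differed by -0.085 (SE 0.045, adjusted p = 0.482), close to the gene-level -0.098.

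Gria3 was lower at 12 of 15 probe sets, with a median of -0.081. Probe set 5572349 had the smallest p of all 103, with signals of 8.99 to 9.58 and a median of 9.28 in ISCL4 mice, against 9.39 to 9.83 and a median of 9.56 in littermates. The groups shared the range from 9.39 to 9.58, and 7 ISCL4 mice were below the littermate mean of their set. The difference of -0.27 (SE 0.090) was 0.832-fold and had an adjusted p of 0.371 by limma, and it was similar in set A (-0.22) and set B (-0.31). Probe set 4833837 differed by -0.23 (SE 0.086, limma's adjusted p = 0.398).

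Gria4 was lower at 15 of 22 probe sets, from -0.41 to 0.24 around a median of -0.034. Probe set 4586763 had signals of 9.37 to 10.31 with a median of 9.99 in ISCL4 mice, against 9.74 to 10.65 with a median of 10.27 in littermates. All 8 ISCL4 mice were below the littermate mean of their set, and the difference of -0.30 (SE 0.10, limma's adjusted p = 0.378) was -0.26 in set A and -0.33 in set B. Probe set 4890460, the dimmest of the gene at a mean of 7.20, differed by -0.41 (SE 0.15, limma's adjusted p = 0.404).

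Gria1 had its 22 probe sets on both sides of 0, 12 lower and 10 higher, from -0.24 to 0.13 around a median of -0.020, and none had an unadjusted p under 0.05. Its probe set with the smallest p, 5410340, differed by -0.16 (SE 0.076, limma's adjusted p = 0.497), with 10.42 to 10.87 in ISCL4 mice and 10.59 to 10.93 in littermates.

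All 5 probe sets of Cacng2 were higher in ISCL4 mice, by 0.032 to 0.15. Probe set 5511746 had signals of 10.05 to 10.40 with a median of 10.17 in ISCL4 mice and 9.98 to 10.12 with a median of 10.04 in littermates. All 8 ISCL4 mice were above the littermate mean of their set, and 6 of them exceeded the highest littermate. The difference was 0.15 (SE 0.056, limma's adjusted p = 0.408), with 0.097 in set A and 0.20 in set B.

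Cnih3 was lower at 5 of 8 probe sets, none with an unadjusted p under 0.05, and its probe set with the smallest p, 4789579, differed by -0.10 (SE 0.080, limma's adjusted p = 0.688). Cnih2 was lower at 7 of 9 probe sets. The Cnih2 probe set 5390759 had 11.85, 12.21, 11.98 and 12.14 in ISCL4 mice of set A, against 11.92, 12.12, 11.95 and 12.10 in littermates. In set B the ISCL4 mice had 11.32, 11.52, 11.08 and 11.13, against 11.84, 11.87, 11.67 and 11.69. The groups were intermixed in set A, with a difference of 0.023, and separate in set B, with -0.50. The pooled difference was -0.24 (SE 0.10, limma's adjusted p = 0.447), and its interaction with the set had limma's adjusted p = 0.726. This probe set was the median of the 9 in every mouse, so that the median of the gene's probe sets gave its value of -0.24 in place of the gene-level -0.068.

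To ask whether one part of a transcript differed from the rest, each probe set was also measured relative to the median of its gene in the same mouse. None of the 103 passed, against 0.0141% of 176782 probe sets, and 11 of them had an unadjusted p under 0.05, or 10.7% against 8.17%. The smallest adjusted p by limma was 0.530, for Gria1 probe set 5425552, whose relative signal was -1.28 ± 0.17 in ISCL4 mice and -1.46 ± 0.17 in littermates (SD, n = 8 each), a difference of 0.18 (SE 0.055). In Gria4 probe set 4586763 again led, at -0.26 (SE 0.10), and in Gria3 probe set 5572349, at -0.19 (SE 0.074), both with limma's adjusted p = 0.556. For Gria2 it was probe set 4370785 at 0.15 (SE 0.057). For Cnih2 it was 5306751, at 0.27 (SE 0.10), measured against the probe set of that gene that differed most. Cacng2 and Cnih3 had no probe set with an unadjusted p under 0.05 on this scale, where 5544694 of Cacng2 differed by -0.067 (SE 0.054) and 4767798 of Cnih3 by 0.11 (SE 0.075). Which exons these probe sets lie in, flip or flop exons of the Gria genes included, was not determined here.

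Differences between array sets were larger than those between groups for many of these probe sets. The median size was 0.193 between sets and 0.063 between groups, and 52 of 103, or 50.5%, passed the test of set B against set A, against 38.7% of all probe sets. Within Gria1 the sets differed in opposite directions, by 1.01 at probe set 5246078 and by -0.68 at 4972349. In Cnih2 all 9 probe sets were lower in set B, down to -0.98 at 5182483. The interaction of group and set passed for 0 of 103 probe sets and 0% of all 188590. An unadjusted p under 0.05 for it was found in 5 of the 103, or 4.85%, against 6.22% of all.

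**Figure D4:**
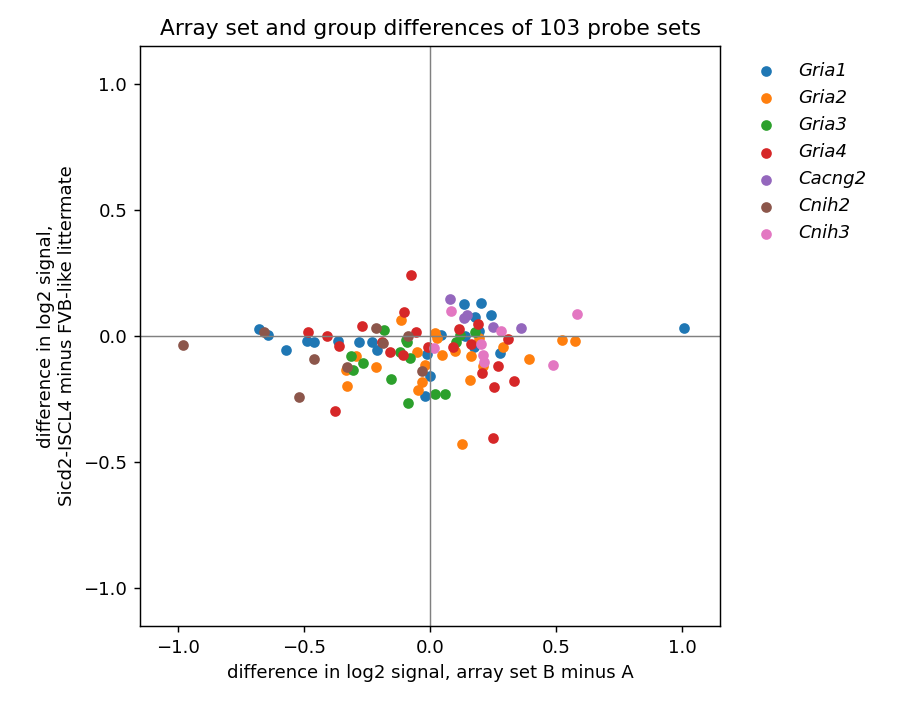
Each point is 1 of the 103 exon probe sets, coloured by gene. The horizontal axis is its difference in log2 signal between array set B and array set A and the vertical axis that between ISCL4 mice and FVB-like littermates, both over the same range. The points spread from -0.98 to 1.01 along the horizontal axis and from -0.43 to 0.24 along the vertical one.

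Mouse-to-mouse variation was examined by correlating the 7 genes over the 16 mice after subtracting the mean of each group in each array set, a step added after the data were seen. All genes of a mouse share an array, so array quality is common to both members of a pair. Of 21 pairs, none passed after adjustment over the pairs in an exact permutation test within groups and sets, and the smallest adjusted p was 0.102. The 6 pairs of Gria genes had Pearson r of 0.48 to 0.59, and of 0.28 to 0.58 without the 2 mice farthest from the median of the first gene of the pair. The values without them were 0.279 for Gria2 and Gria4, 0.299 for Gria3 and Gria4, 0.371 for Gria1 and Gria3, 0.411 for Gria2 and Gria3, and 0.581 for Gria1 and Gria4, so that several of these relations rest on those mice. For Gria1 and Gria2, r was 0.477 (exact permutation p = 0.0146, adjusted p = 0.102) and Spearman's rho 0.594 (exact permutation p = 0.0115, adjusted p = 0.12). Without the 2 mice farthest from the median of Gria1, r was 0.534, and it was 0.593 in set A and 0.424 in set B. The highest r of the 21 pairs was that of Gria4 and Cacng2, at 0.639 (exact permutation p = 0.0289, adjusted p = 0.121). Without the 2 mice farthest from the median of Gria4 it was 0.487. For Cacng2 and Cnih2, r was -0.660 (exact permutation p = 0.00806, adjusted p = 0.102) and rho was -0.650 (exact permutation p = 0.0123, adjusted p = 0.12). Without the 2 mice farthest from the median of Cacng2 that r was -0.484. It was -0.356 among ISCL4 mice alone and -0.977 among littermates alone, and the difference between the groups was not tested.

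**Figure D5:**
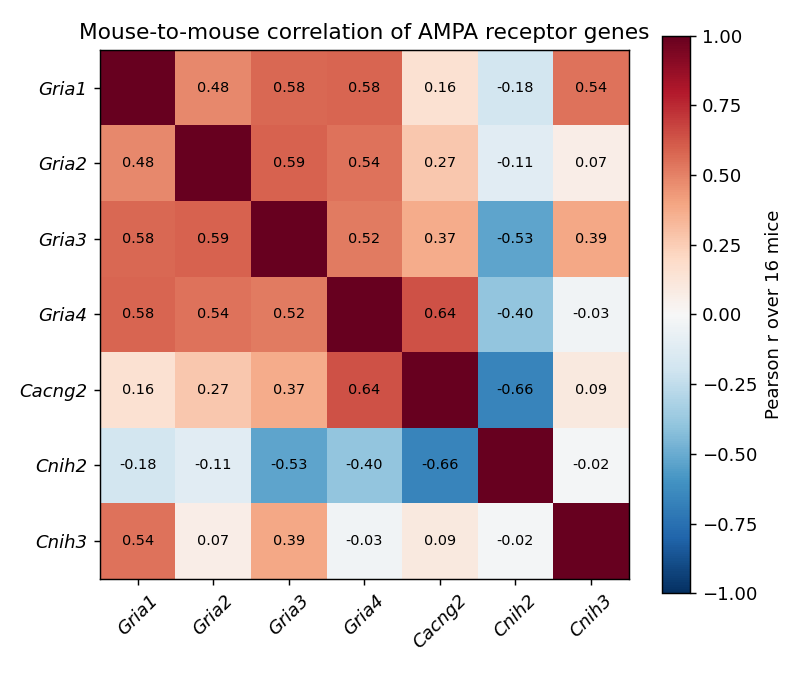
Pearson r over 16 mice between the gene-level signals of the 7 genes, after subtracting the mean of each group in each array set. Red is positive and blue negative. The 6 pairs of Gria genes are all positive, from 0.48 to 0.59, and Cacng2 with Cnih2 is the most negative at -0.66. The highest r is that of Gria4 with Cacng2, at 0.64.

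Other auxiliary proteins and partners of the receptor were read from lists of 87 genes, of which 67 were measured by 68 features. In all 2 passed, 1 higher (0.167% of all features were called higher) and 1 lower (0.125% were called lower), and 19 features, or 27.9%, had an unadjusted p under 0.05 against 14.4% of all. Arc, whose protein drives endocytosis of AMPA receptors and whose gene lies on chromosome 15, rose in ISCL4 mice to 10.35 ± 0.60, against 9.83 ± 0.65 in littermates (SD, n = 8 each, over both array sets). The difference was 0.51 (SE 0.084, limma's adjusted p = 0.0157), with 0.56 in set A and 0.47 in set B. A replicate block took it to the other side of the threshold (limma's adjusted p = 0.0517), as did a fit without the array set term (adjusted p = 0.740). Lrrtm4, a postsynaptic adhesion protein that binds AMPA receptors, fell to 8.94 ± 0.077 in ISCL4 mice, against 9.23 ± 0.081 in littermates (SD, n = 8 each), a difference of -0.29 (SE 0.043, adjusted p = 0.0077), with -0.28 in set A and -0.30 in set B. The lists were drawn up with earlier results on these arrays known, those of Arc and Lrrtm4 among them. Neither the 2 calls nor the 27.9% can therefore be weighed against the shares of all features.

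Among the further auxiliary proteins, 5 of 12 measured features were higher and 7 lower, with a median of -0.0087 and no call. Those with the smallest p were Cnih4, a cornichon homologue, at -0.19 (SE 0.073), the receptor-associated protein Prrt1 at 0.13 (SE 0.056) and Cpt1c, a neuronal protein of the endoplasmic reticulum, at 0.060 (SE 0.036). The proteins that bind the receptor from outside the cell gave 2 higher and 5 lower of 7. Beside Lrrtm4 they were led by the neuronal pentraxins, which cluster AMPA receptors, with 0.17 for Nptx1 (limma's adjusted p = 0.106) and 0.19 for Nptx2 (adjusted p = 0.172).

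Of 28 features for scaffolds and trafficking proteins, 11 were higher and 17 lower, with a median of -0.022. Arc passed, and Myo6, the motor of receptor endocytosis, and Epb41l2, a cytoskeletal adaptor, differed by -0.13 and -0.12. Kinases and phosphatases were lower for 8 of 10 features, with a median of -0.046 and no call. They were led by the calcineurin subunit Ppp3ca at -0.10 (SE 0.027, limma's adjusted p = 0.121), the phosphatase Ptpn5 at 0.11 and the protein kinase A subunit Prkacb at -0.11. In the list of RNA editing and mRNA control, with 3 higher and 3 lower of 6, the editing enzyme homologue Adarb2 differed by -0.21, Fmr1 by -0.13 and Adar by 0.0995, and none passed. The listed transcription factors, with 2 higher and 3 lower of 5 features, had no call either, with Sp4 at -0.12 (limma's adjusted p = 0.214), Creb1 at 0.049 and 0.015 in its 2 features, and Nrf1 at -0.042. Against these medians, the median over all features was 0.0044.

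For each gene the features whose variation between mice was most like its own were sought among 14995 others with 1 symbol, as a description over 16 mice that share arrays. Gria1 was nearest to Camkv, a kinase-like vesicle protein gene (r = 0.926), and Scube1 (r = 0.894). Gria2 was nearest to Rraga (r = 0.867), Gria3 to Lynx1, a modulator of nicotinic receptors (r = 0.893), Gria4 to Zdhhc2, a palmitoyltransferase gene (r = 0.941), Cacng2 to Olfr427 (r = 0.914), Cnih2 to Sval2 (r = 0.890) and Cnih3 to Olfr569 (r = 0.956). The second in each list were Epcam for Gria2 (r = 0.863), Adam22 for Gria3 (r = 0.818), Xrn1 for Gria4 (r = 0.928), Dda1 for Cacng2 (r = 0.839), Fgf10 for Cnih2 (r = 0.843) and Dolk for Cnih3 (r = 0.910). No member was the nearest feature of another. These r values were picked as the highest among 14995 features, which by itself favours high values, and none was tested.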

How the data were processed

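The deposited values are log2 signals per gene-level feature and per exon probe set for 16 arrays, 1 per mouse. The authors named RMA, Partek 6.6 and the build mm9, per the submitters' processing notes. What each was used for is not given in the sources read here. Symbols came from the platform annotation, which gave 1 symbol to 14996 gene-level features and 179269 probe sets, and chromosomes and gene order from RefSeq genes of GRCm38.p6. That build differs from mm9, so no coordinates are given. No detection call was used.

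All features of a level were fitted with limma 3.58.1 in R 4.3.3 (lmFit, eBayes) with array set as a covariate, and p values were adjusted by Benjamini-Hochberg over all of them and called under 0.05. Differences are ISCL4 minus FVB-like. Relative signals needed at least 3 probe sets per gene. Precision is limited by the number of arrays, and the median SE of a gene's difference was 0.062. Fits were also run on simulated data with planted changes, and the share recovered is not given here. The absence of a call does not exclude a small difference. Figures used matplotlib 3.10.9.

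The members and lists were chosen with earlier results of these data known. The text names all measured members, for each member the probe set with the smallest p on each scale, the called genes and the 3 smallest p of each list, and the 2 most similar features. Any other gene or probe set was named after its values were seen. Replicates are separate mice. Same-numbered mice correlated at 0.296 to 0.487 in their deviations from group means, over 0.1 in 8 of 8 pairs, but each number lies within 1 array set. From group and set means the range was -0.051 to 0.246, over 0.1 in 6 of 8 pairs, and 4 of 8 ISCL4 mice and 6 of 8 littermates correlated best with their own number. Whether the numbers pair mice beyond the array set is therefore unsettled. The blocked value is given for Fezf2 and Arc, whose calls it changed, and is not given for Pdgfb.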

Additional observations from a re-analysis of the deposited data

How the results depend on the processing

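Among the 7 genes and their probe sets, 0 calls were made at gene level, at exon level and for relative signal under every setting run for that level: no array set term, the replicate number as a block, median centring, quantile normalization, leaving out features below the 25th percentile, a trended robust prior, either array set alone, leaving out each mouse in turn (0 to 0), the mean of the other probe sets, and the median of a gene's exon probe sets. Of 518 member values recomputed, 510 kept their direction, 8 turned and 0 passed. The smallest adjusted p was 0.134. The interaction with array set gave 0 genes after quantile normalization too. Of the partner genes, 2 passed, against 1 with the replicate number as a block and 1 without the array set term, Lrrtm4 in both.

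Directions turned for Gria1 (0.022 with quantile normalization, 0.011 in set A), for Cnih3 (0.0049 with quantile normalization, 0.012 in set B) and for Cnih2 probe set 5390759 (0.023 in set A). Quantile normalization also moved Gria3 to -0.058, Gria4 to -0.033 and Cnih2 to -0.033. Leaving out ISCL4 replicate 1 gave 0.0044 for Gria1 and 0.0098 for Cnih3, and leaving out replicate 6 gave 0.0018 for Gria1. Leaving out each mouse in turn, differences ranged from -0.030 to 0.0044 for Gria1, -0.12 to -0.081 for Gria2, -0.12 to -0.076 for Gria3, -0.078 to -0.032 for Gria4, 0.061 to 0.083 for Cacng2, -0.085 to -0.047 for Cnih2 and -0.033 to 0.0098 for Cnih3. The causes were not tested. With the replicate block, 18 of all gene-level features passed, against 49 without it.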
